A study of Oryctolagus cuniculus with 134 samples.

Results

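Tenascin C (TNC) and 5 further matrix genes, matricellular except for fibronectin, were followed through the aorta and the 4 heart valves of rabbits. The rabbits were given a chow, cholesterol or lard diet, or cholesterol with cardiac irradiation. The 6 genes were TNC (ENSOCUG00000011500), periostin (POSTN, ENSOCUG00000011482), thrombospondin 1 (THBS1, ENSOCUG00000003792), thrombospondin 2 (THBS2, ENSOCUG00000005371), SPARC (ENSOCUG00000012120) and fibronectin (FN1, ENSOCUG00000010104). Each was matched by gene name and had 1 entry among the 29587 genes of the count tables, of which 14716 carry a gene name. The list was chosen by the measured response of TNC across these tissues and treatments, and the other 5 genes were drawn around it with that response known. Differences of TNC are therefore given as a description, with their size and interval and no p-value. For the other 5 genes adjusted p-values are given, but a list drawn up with results known is not independent evidence of its direction.

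Matricellular proteins are secreted into the extracellular matrix, where they bind cell-surface receptors, growth factors and structural fibres rather than bearing load themselves. Tenascin C is a large multi-armed glycoprotein that is sparse in most adult tissue and appears in development, wound repair and inflammation, where it acts through integrins and toll-like receptor 4. Periostin binds collagen and integrins and is abundant in heart valves and their interstitial cells. Thrombospondins 1 and 2 limit angiogenesis through CD36 and CD47, and thrombospondin 1 can release latent TGF-beta. SPARC binds collagen and takes part in its assembly into fibrils. Fibronectin is the fibrous scaffold on which many of these proteins gather.

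All animals were male New Zealand White rabbits that entered a 16-week protocol at 12 weeks of age. Ctrl rabbits had standard chow, CHT rabbits a diet with 0.3% cholesterol, Lard rabbits a diet with 5% lard, and IR/CHT rabbits the cholesterol diet plus 24 Gy to the aortic valve and thoracic aorta, given as 3 fractions of 8 Gy after 8 weeks of diet. The CHT, Lard and IR/CHT rabbits also drank vitamin D2 at 25000 U per day, scaled to body weight, for the first 15 days, and Ctrl rabbits did not. Diet and vitamin D2 therefore cannot be told apart in any comparison with Ctrl, and rabbits given vitamin D2 alone or irradiation alone were not analysed here. Aorta, aortic valve, mitral valve, pulmonary valve and tricuspid valve of 27 rabbits gave 134 libraries, with 7 per group except CHT, which had 6 in every tissue, and the Ctrl mitral valve, which had 6. All comparisons with Ctrl in a tissue share the same Ctrl libraries.

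Library totals ran from 13564979 to 50577676 read pairs with a median of 18235577. Levels are given as counts per 1000000 read pairs (CPM) after scaling of library sizes, and at 10 CPM the median library held 182.4 read pairs, a counting SD of 7.4%. Gene lengths were not used, so levels are compared between samples and not between genes. The summed smooth muscle markers (6 of 8 found) were at 11600 to 115700 CPM in the aorta. They were at or below 2683 CPM in the valves apart from 1 pulmonary valve at 19660 CPM. Of the 54 pulmonary and tricuspid libraries 5 stood apart and were picked out after the data were seen. That pulmonary valve was L176 of the IR/CHT group. L275 (pulmonary IR/CHT), L168 (tricuspid Ctrl), L197 and L276 (both tricuspid IR/CHT) had endothelial marker sums of 86.3, 382, 444 and 326 CPM against 879 to 1825 in the others. The counts came in 1 table for each of 2 plates, whose kind is not given in the sources used here. Aortas were all on plate 2, and the CHT aortic and mitral valves were all on plate 1.

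A gene was called where edgeR's quasi-likelihood test gave an adjusted p under 0.05 over all genes tested in the tissue and the fold change was over 1.5. TNC is left out of these counts, since its response chose the list. Of the other 5 genes, 3 were called in the aorta on CHT, where 19.4% of all genes tested were, 1 on Lard (2.61%) and 5 on IR/CHT (34.3%). In the aortic valve 1 was called on CHT (11.9% of all genes), 0 on Lard (0.234%) and 2 on IR/CHT (42.8%). In the mitral valve 0 were called on CHT (5.62%), 0 on Lard (0%) and 2 on IR/CHT (17.7%). The pulmonary valve had 0 calls on CHT, Lard or IR/CHT, where 0.159%, 0% and 0.706% of all genes were called. The tricuspid valve likewise had 0, against 0.163%, 0% and 0.231%. Between IR/CHT and CHT, aorta had 0 calls (0.596% of all genes), aortic valve 2 (19.7%), mitral valve 1 (0.189%), pulmonary valve 0 (0.0761%) and tricuspid valve 0 (0%).

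Where edgeR called 0, an unadjusted p under 0.05 was reached by 1 of the 5 for the IR/CHT and CHT aortas, 2 for the aortic valve on Lard, 0 and 1 for the mitral valve on CHT and Lard, 1 for the pulmonary valve on CHT, and 1 each for the IR/CHT tricuspid valve set beside Ctrl and beside CHT. It was reached by 0 in the other comparisons of the pulmonary and tricuspid valves. DESeq2 called 1 in that aortic comparison and 0 in all the others just named. As a description with TNC included, the median log2 fold change of the 6 genes in the aorta was 1.36 on CHT, 0.99 on Lard and 1.83 on IR/CHT, beside -0.04, 0.01 and 0.00 over all genes tested. In the valves the 6-gene median lay between -0.08 and 0.36 for each treatment against Ctrl. For IR/CHT against CHT it was -0.42 in aortic, -0.20 in mitral, -0.10 in tricuspid and -0.08 in pulmonary valves and -0.06 in aortas, beside -0.01 to 0.04 over all genes.

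TNC was low in the Ctrl aorta and many times higher in the aorta of every treated group. Its Ctrl aorta level was 12.9 ± 4.60 CPM (SD, n = 7), with a lowest, median and highest library of 4.13, 13.2 and 19.0 CPM. On CHT the 6 aortas were at 71.7, 96.3, 105, 114, 345 and 479 CPM, on Lard the lowest, median and highest of 7 were 19.1, 154.98 and 433 CPM, and on IR/CHT they were 67.9, 107 and 221 CPM. No treated aorta overlapped the Ctrl aortas in any of the 3 groups, though the lowest Lard aorta lay just above the highest Ctrl aorta. The group means were 15.7, 12.1 and 10.2 times that of Ctrl, and the fitted log2 differences were 4.001 ± 0.64 (SE; 95% interval 2.70 to 5.31) on CHT, 3.61 ± 0.62 (2.35 to 4.88) on Lard and 3.41 ± 0.61 (2.15 to 4.66) on IR/CHT. IR/CHT and CHT aortas overlapped, with a log2 difference of -0.59 and an interval of -1.77 to 0.58. In bulk tissue fewer cells of a type and less RNA per cell cannot be told apart, and that holds for every level given here.

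**Figure D1:**
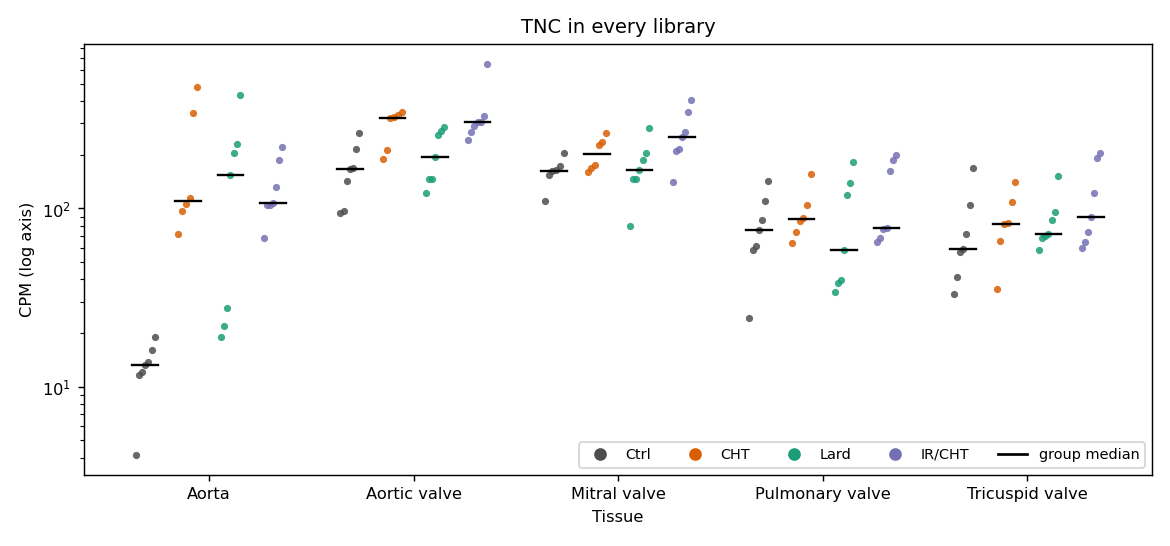
TNC level in each library (CPM, log axis) by tissue, with a colour for each of the 4 treatments and a bar at each group's median. The Ctrl aortas lie between 4.13 and 19.0 CPM, below every treated aorta, while treated and Ctrl groups of each valve overlap.

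Lard aortas were spread over the widest range relative to their lowest library. Libraries L562, L563, L564 and L575 had TNC at 433, 19.1, 27.6 and 204 CPM with cartilage marker sums of 957, 78.8, 145 and 874 CPM. Libraries L576, L577 and L578 had TNC at 22.0, 154.98 and 229.5 CPM with cartilage marker sums of 17.8, 300.5 and 1407 CPM. Cartilage markers (7 of 8 found) summed to 18.1 to 91.4 CPM in the Ctrl aortas, 30 to 241.6 on CHT and 115.0 to 623 on IR/CHT, where no aorta overlapped Ctrl. Other cell type markers also moved in the aorta. The macrophage sum (11 of 12 markers found) was 69.8 to 302 CPM on Ctrl, 492 to 1219 on CHT, 194.7 to 501 on Lard and 690.2 to 2468 on IR/CHT, and the smooth muscle sum was 81800 to 115700, 31650 to 81450, 52990 to 104800 and 11600 to 61020 CPM. Endothelial markers (7 of 8 found) summed to 93.7 to 198.5 CPM on Ctrl and 163 to 1105 CPM over the treated groups, and fibroblast markers (8 of 10 found) to 5987 to 13020 on Ctrl and 7276 to 22430 CPM over the treated groups. T cell markers (3 of 6 found) summed to 0.254 to 2.60 CPM on Ctrl, 1.56 to 5.51 on CHT, 0.129 to 2.26 on Lard and 3.07 to 12.6 on IR/CHT. Heart muscle markers (7 of 11 found) summed to 536 to 769 CPM on Ctrl, 174.3 to 518 on CHT, 376 to 653 on Lard and 182.7 to 2959 on IR/CHT. No found macrophage, smooth muscle, endothelial or fibroblast marker was at 0 in all aortas, and the part of these shifts in any aortic result below was not tested.

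In the valves TNC started higher and differed less. On Ctrl the order of mean levels was aortic valve 164 ± 61.4, mitral valve 161.2 ± 30.4, pulmonary valve 79.9 ± 38.2, tricuspid valve 76.4 ± 46.3 and aorta 12.9 CPM. The aortic and mitral valves were not separated (log2 difference 0.04, interval -0.66 to 0.73), it was above the pulmonary valve by 1.05 ± 0.33 (SE) and above the aorta by 3.68 ± 0.37, and no pulmonary or tricuspid library on Ctrl came down to the aortic range. Mitral exceeded tricuspid valve by 1.07 ± 0.34, or by 1.41 without the tricuspid Ctrl library L168 and the 4 others that stood apart. L168 held the highest TNC of its group, 167.6 CPM.

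The aortic valve had a Ctrl lowest, median and highest TNC of 94.6, 165.6 and 265.1 CPM, against 188.6, 324 and 347 on CHT, 121, 194.01 and 286 on Lard and 243.1, 304 and 650.4 on IR/CHT. The log2 difference was 0.82 ± 0.26 (interval 0.28 to 1.36) on CHT with 4 of 6 libraries above all Ctrl, and 1.04 ± 0.26 (0.52 to 1.57) on IR/CHT with 6 of 7 above. On Lard it was 0.31. With each library left out in turn the CHT difference was 0.72 to 0.97, and within plate 1 it was 0.57. The IR/CHT difference was 0.77 without the highest library, L547, 0.46 within plate 1 and 1.61 within plate 2. In the mitral valve the IR/CHT libraries ran from 141 to 404 CPM with a median of 252, against 110.1 to 204 with a median of 163 on Ctrl, a log2 difference of 0.67 ± 0.23 (0.21 to 1.13) with 6 of 7 above. With each library left out in turn it was 0.55 to 0.78, and within plates 1 and 2 it was 0.68 and 0.64. TNC in the pulmonary valve differed from Ctrl by 0.22, 0.11 and 0.58 on CHT, Lard and IR/CHT, and in the tricuspid valve by 0.12, 0.12 and 0.54, all with groups that overlapped.

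The TNC response differed in size between aorta and aortic valve. The aortic valve's log2 response minus that of the aorta was -3.23 ± 0.67 (SE; interval -4.56 to -1.89) on CHT, -3.33 ± 0.64 on Lard and -2.50 ± 0.63 on IR/CHT. At the end of the protocol the mean levels on CHT were 202 ± 168.8 CPM (aorta) and 288 ± 69.2 CPM (aortic valve).

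In the aortic valve the macrophage sum was 194.2 to 628 CPM on Ctrl, 829.4 to 1296 on CHT, 129 to 737 on Lard and 2253 to 2819 on IR/CHT. T cell markers summed to 0.147 to 1.48 CPM on Ctrl and 6.59 to 27.1 CPM on IR/CHT. Heart muscle markers summed to 172.1 to 12160 CPM in the Ctrl aortic valves, 14.9 to 354 on CHT and 20.7 to 242.9 on Lard, and on IR/CHT the lowest and median were 28.6 and 63.8, with 1 library, L236, in the Ctrl range. Platelet markers (3 of 7 found) summed to 11.2 to 68.9 CPM on Ctrl and 3.80 to 8.62 on IR/CHT, with no overlap, and to 3.48 to 17.5 on CHT and 8.75 to 34.2 on Lard. Cartilage markers summed to 508.4 to 1096 CPM on Ctrl, 314 to 809.8 on CHT, 384.8 to 839.7 on Lard and 327 to 597 on IR/CHT. Endothelial markers summed to 77.0 to 603 CPM on Ctrl, 181.1 to 619 on CHT, 40.6 to 657 on Lard and 48.7 to 689 on IR/CHT in the aortic valve, and to 74.5 to 1063, 353 to 727, 107 to 968 and 289 to 1357 CPM in the mitral valve. In the IR/CHT aortic valves L178, L194 and L236 that sum was 48.7, 142.9 and 112 CPM, with POSTN at 1193, 2242 and 3032 CPM and FN1 at 15148, 12819.5 and 16222 CPM. In L174, L257, L273 and L547 it was 689, 508, 489 and 629 CPM, with POSTN at 4021, 3833, 4441 and 5606 CPM and FN1 at 26377, 23659, 23077 and 26335 CPM. Some aortic valves of other groups went the other way. Lard L152 had the lowest endothelial sum of its group, 40.6 CPM, and the highest POSTN, 9410 CPM. Ctrl L198 had the lowest of its group, 77.0 CPM, and the highest FN1, 9896 CPM. In the mitral valve the macrophage sum was 222 to 661 CPM on Ctrl, 643 to 1163 on CHT and 880.1 to 1641 on IR/CHT. Its T cell sum was 0.505 to 1.76 CPM on Ctrl and 2.90 to 16.5 on IR/CHT, with no overlap, and its smooth muscle sum was 161.9 to 427 on Ctrl, 480.2 to 1370.0 on CHT and 216 to 1415 on IR/CHT. The part of these sums in the valve results, the correlations below included, was not tested.

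POSTN, which binds collagen and integrins, rose in the aorta under every treatment. Ctrl aortas had a lowest, median and highest POSTN of 323, 396 and 814 CPM. On CHT these were 689.5, 795 and 1456 CPM, on Lard 466, 1307 and 2022, and on IR/CHT 952, 1829 and 2625, where no library overlapped Ctrl. The log2 fold change was 0.93 ± 0.32 (SE; edgeR adjusted p = 0.0274) on CHT, 1.17 ± 0.31 (0.0366) on Lard and 1.90 ± 0.31 (2.04e-05) on IR/CHT. On CHT 2 of 6 libraries were above all Ctrl, on Lard 4 of 7. The CHT call was lost (0.77 to 0.88, adjusted p 0.0509 to 0.0831) without any 1 of Ctrl L553, L568, L569 and L571 or CHT L559 and L561, and the Lard call (0.96 to 1.19, adjusted p 0.0535 to 0.117) without any 1 of Ctrl L552, L553, L568, L569 and L571 or Lard L562, L575, L577 and L578. The Lard call was also lost with only the Lard and Ctrl aortas in the fit (1.18, adjusted p = 0.131) and with no filter on low counts (1.17, adjusted p = 0.0648). Between IR/CHT and CHT the difference in the aorta was 0.97 (interval 0.31 to 1.62), which edgeR did not call (adjusted p = 0.105) and DESeq2 did (0.97, adjusted p = 0.0463).

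No POSTN call was made under treatment in any valve. Aortic valve levels were 3812 ± 1092 CPM on Ctrl (lowest 2757, median 3213, highest 5233) and on IR/CHT it ran from 1193 to 5606 with a median of 3833, a log2 difference of -0.14. Against CHT the IR/CHT aortic valve differed by -0.65 (interval -1.25 to -0.06, adjusted p = 0.107). The log2 response of the aortic valve to IR/CHT minus that of the aorta was -2.17 ± 0.42 (adjusted p = 8.62e-05). On Ctrl the order of mean levels was pulmonary valve 5360 ± 1169, aortic valve 3812, mitral valve 3248, tricuspid valve 2002 ± 636 and aorta 509 ± 214 CPM. The aortic valve exceeded the aorta by 2.91 ± 0.24 (adjusted p = 1.32e-11), and the pulmonary valve, with libraries from 3695 to 7345 CPM, exceeded the tricuspid valve, with libraries from 1062 to 3011, by 1.41 ± 0.23 (6.35e-05). Among valves next to each other in that order, aortic against pulmonary valve differed by -0.48 (0.0676), aortic against mitral valve by 0.24 and mitral against tricuspid valve by 0.70 (0.0702), and none was called. Tricuspid valve and aorta were not tested against each other, and their libraries did not overlap. With the rabbit as a block the last difference was 0.74 and was called (adjusted p = 0.0187), and without the 5 libraries that stood apart it was 0.72 (0.0230).

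THBS1, an anti-angiogenic protein that can release latent TGF-beta, rose in the aorta on CHT and IR/CHT. Ctrl aortas had a lowest, median and highest level of 18.8, 29.5 and 74.9 CPM. The 6 CHT aortas were at 55.1, 93.5, 184.1, 306, 360.2 and 1015 CPM, and the IR/CHT aortas had 138, 289 and 486 CPM as their lowest, median and highest. One CHT aorta lay within the Ctrl range and no IR/CHT aorta did. The log2 fold change was 3.27 ± 0.57 (edgeR adjusted p = 8.73e-05) on CHT and 3.18 ± 0.56 (4.30e-05) on IR/CHT. Over the alternatives and with each library left out in turn the CHT difference ran from 2.52 to 3.56. On Lard the libraries ran from 20.9 to 227.9 CPM with a median of 83.9, and the difference of 1.66 ± 0.53 was not called by edgeR (adjusted p = 0.0944), with 4 of 7 libraries above all Ctrl. DESeq2 called it (1.67, adjusted p = 0.0487).

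The valves had a higher THBS1 level than the aorta from the start. Ctrl means were 1171 ± 219 CPM in the mitral, 1120.4 ± 274.8 in the tricuspid, 1104 ± 219 in the aortic and 1016 ± 186.6 in the pulmonary valve against 35.5 ± 18.6 in the aorta, and no pair of valves compared was called. The aortic valve exceeded the aorta by 4.96 ± 0.25 on the log2 scale (adjusted p = 6.54e-17). Its log2 response minus that of the aorta was -3.13 ± 0.60 on CHT (0.000751) and -3.32 ± 0.57 on IR/CHT (1.71e-05).

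In the mitral valve THBS1 fell on IR/CHT. Ctrl libraries ran from 880.2 to 1539 CPM with a median of 1159, CHT libraries from 911 to 1815 with a median of 1477, and IR/CHT libraries from 473 to 1253 with a median of 761. The log2 fold change was -0.60 ± 0.18 from Ctrl (edgeR adjusted p = 0.0131; 5 of 7 below all Ctrl) and -0.87 ± 0.18 from CHT (0.0286; 6 of 7 below all CHT). Against Ctrl the call was lost without any 1 of Ctrl L156, L183, L262 and L278 or IR/CHT L175, L237, L258 and L274 (-0.58 to -0.48, adjusted p 0.0230 to 0.0514), each with a fold under 1.5, and the difference was -0.70 within plate 1 and -0.50 within plate 2, the latter not called. The fold was also under 1.5 with DESeq2 (-0.56, 0.0143), with its size factors in edgeR (-0.56), with no filter on low counts (-0.55) and with only the 2 groups in the fit (-0.57). Against CHT it was lost without any 1 of CHT L170, L187, L229 and L245 or IR/CHT L237, L258 and L274 (-0.89 to -0.79, adjusted p 0.0584 to 0.107) and within plate 1 (-1.05, adjusted p = 0.128). The mitral minus tricuspid response to IR/CHT was -0.67 (adjusted p = 0.178), and with the rabbit as a block -0.63 (0.0372). In the pulmonary valve CHT libraries had 1234 to 2097 CPM with a median of 1695, against 860.5 to 1282 with a median of 915 on Ctrl, and 5 of 6 were above all Ctrl. That difference of 0.72 ± 0.20 (interval 0.31 to 1.14) was not called (adjusted p = 0.181), and without the 5 libraries that stood apart it was 0.72 and called (0.0342). None of those 5 was a CHT or Ctrl pulmonary valve. Heart muscle markers summed to 37.1 to 5487 CPM in the Ctrl and 15.2 to 52.2 CPM in the CHT pulmonary valves, and their part was not tested.

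THBS2, the related thrombospondin without the TGF-beta-releasing motif, rose in 1 comparison with Ctrl, the IR/CHT aorta. Its lowest, median and highest level there were 55.2, 88.7 and 150.3 CPM against 37.2, 54.1 and 88.7 on Ctrl, with 3 of 7 libraries above all Ctrl. The log2 fold change was 0.79 ± 0.26 (edgeR adjusted p = 0.0136), beside 0.50 (0.174) on CHT and 0.64 (0.222) on Lard. In the aortic valve the IR/CHT mean was 101 ± 27.5 CPM against 149 ± 66.6 on Ctrl, a difference of -0.57 that was not called (0.121). The aortic valve's log2 response to IR/CHT differed by -1.51 ± 0.41 (0.00417) from that of the aorta and by -1.15 ± 0.43 (0.0282) from that of the pulmonary valve. The latter was lost with no filter on low counts (-1.07, adjusted p = 0.0704).

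On Ctrl the aortic valve exceeded the aorta, at 56.3 ± 18.3 CPM, by 1.401 ± 0.44 in THBS2 (adjusted p = 0.00783) and the pulmonary valve, at 58.8 ± 27.3 CPM, by 1.35 ± 0.44 (0.00943). The mitral valve was at 111 ± 44.0 CPM. The tricuspid valve had a mean of 105 ± 131 CPM and a median of 63.2, because the library L168 was at 394 CPM. The log2 difference of mitral minus tricuspid valve was 0.07 with all libraries and 0.99 (adjusted p = 0.0287) without the 5 that stood apart, and that of pulmonary minus tricuspid valve was -0.85 (0.195) and 0.07.

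SPARC, a collagen-binding protein, fell on IR/CHT in aorta, aortic valve and mitral valve. Its entry in the tables held few reads, with group means of 7.55 to 24.3 CPM, and how much of the transcript that entry covers was not tested. The lowest, median and highest levels were 6.35, 12.8 and 25.8 CPM in IR/CHT aortas against 15.7, 26.7 and 33.2 on Ctrl, a log2 fold change of -0.73 ± 0.22 (edgeR adjusted p = 0.00751; 5 of 7 below all Ctrl). Aortic valves had 4.79, 7.30 and 11.3 CPM on IR/CHT, 12.1, 18.5 and 26.3 on CHT and 7.87, 16.1 and 22.9 on Ctrl. No IR/CHT aortic valve overlapped the CHT group. The fold changes were -1.10 ± 0.23 against Ctrl (0.000356; 4 of 7 below all Ctrl) and -1.30 ± 0.24 against CHT (0.000325). Within plate 2 the difference from Ctrl was -0.79 (0.0542), within plate 1 -1.37.

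In the mitral valve SPARC ran from 5.06 to 17.99 CPM on IR/CHT, against 14.1 to 22.2 with a median of 15.6 on Ctrl. The fold change was -0.63 ± 0.22 (edgeR adjusted p = 0.0348; 6 of 7 below all Ctrl). It was lost without any 1 of Ctrl L156, L183, L199 and L241 or IR/CHT L179, L195 and L548 (-0.63 to -0.48, adjusted p 0.0505 to 0.0970) and within either plate alone (-0.70 and -0.56). The call was also lost with no filter on low counts and with only the groups compared in the fit. The log2 response to IR/CHT, aortic minus pulmonary valve, was -1.17 ± 0.26 (0.000288), and the pulmonary group means ran from 17.2 to 19.0 CPM over the 4 treatments. On Ctrl the aorta had the highest mean, 24.3 ± 7.93 CPM, and the aortic valve the lowest, 16.0 ± 4.79, a difference of -0.59 ± 0.19 (0.00906). That call was lost without any 1 of 6 of the 7 Ctrl rabbits (-0.57 to -0.40, adjusted p 0.0157 to 0.111) and without the 5 libraries that stood apart (-0.51, 0.0173) and with DESeq2 (-0.53, 0.0104), where the fold was under 1.5. None of those 5 was an aorta or aortic valve. The call was also lost with DESeq2's size factors in edgeR and with no filter on low counts.

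FN1, the fibronectin scaffold, rose in the aorta and the aortic valve on CHT and IR/CHT. Ctrl aortas had a lowest, median and highest level of 3075, 4157 and 8398 CPM. On CHT these were 8289.8, 18583 and 26151 CPM and on IR/CHT 9909, 18076 and 29494, where no library overlapped Ctrl. The log2 fold change was 1.79 ± 0.35 (edgeR adjusted p = 0.000321; 5 of 6 above all Ctrl) on CHT and 1.76 ± 0.34 (0.000123) on IR/CHT. On Lard the libraries ran from 3808 to 18261 CPM with a median of 8238, and the difference of 0.82 ± 0.33 was not called (0.212).

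Aortic valve FN1 had a lowest, median and highest level of 3455, 6943 and 9896 CPM on Ctrl, 9654, 12638 and 15382 on CHT and 12819.5, 23077 and 26377 on IR/CHT. No IR/CHT library overlapped Ctrl. The fold changes were 0.86 ± 0.22 (edgeR adjusted p = 0.00887) on CHT, 1.55 ± 0.22 (1.56e-06) on IR/CHT and 0.69 ± 0.22 (0.0255; 5 of 7 above all CHT) for IR/CHT against CHT. The CHT call was lost with plate as a covariate (0.77, 0.0516) and within plate 1 (0.77, 0.152). IR/CHT against CHT was lost without CHT L169 or L244 or IR/CHT L547 (0.59 to 0.64, 0.0567 to 0.0680) and within plate 1 (0.65, 0.0932). On Lard the aortic valve difference was 0.57 (0.418).

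The mitral valve, the irradiated rabbits' other left-sided valve, gave an FN1 difference on IR/CHT of -0.04 with an interval of -0.35 to 0.26. The aortic valve response to IR/CHT exceeded that of the pulmonary valve by 1.47 ± 0.25 (edgeR adjusted p = 7.08e-06), and against the aorta no FN1 difference in response was called. On Ctrl the means were 9628 in the mitral, 8661 in the pulmonary, 6957 in the aortic and 6462 CPM in the tricuspid valve and 5384 ± 2222 CPM in the aorta, and no pair compared was called, the aortic valve exceeding the aorta by 0.37 (0.154).

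**Figure D2:**
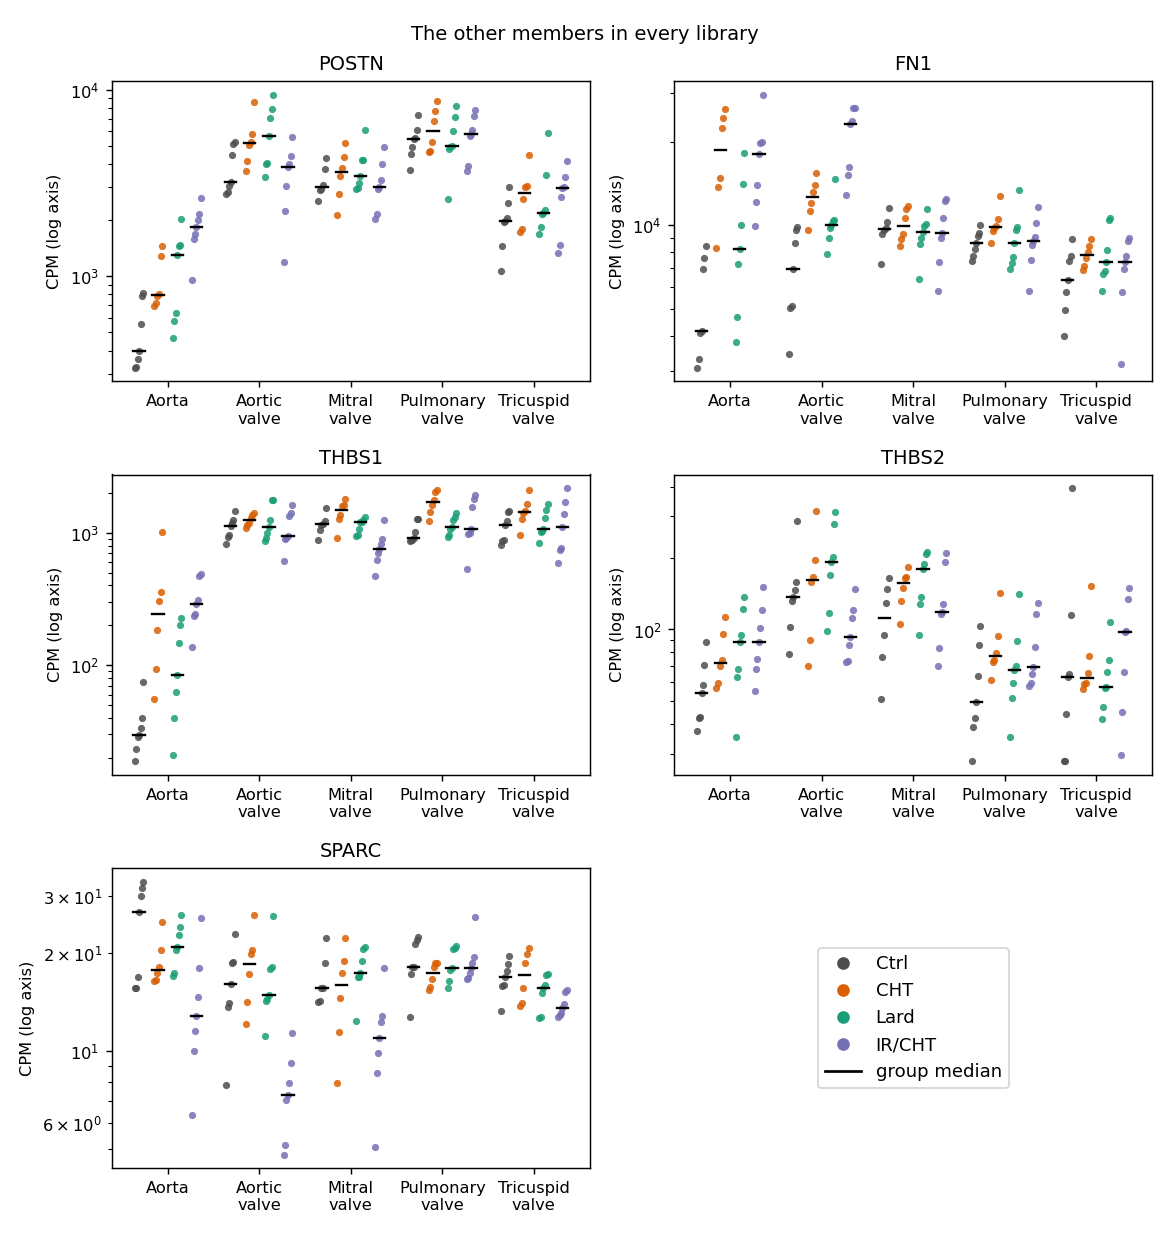
Levels of POSTN, FN1, THBS1, THBS2 and SPARC in each library (CPM, log axis), by tissue and treatment, with a bar at each group's median. THBS1 in the Ctrl aorta, at 18.8 to 74.9 CPM, lies far below the Ctrl valves, and SPARC has its lowest group median in the IR/CHT aortic valve, at 4.79 to 11.3 CPM.

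Between tissues on Ctrl, again with TNC left out, 4 of the 5 genes were called for aortic valve against aorta (49.6% of all genes tested), 1 for aortic against pulmonary valve (48.2%), 0 for mitral against tricuspid valve (5.33%), 0 for aortic against mitral valve (2.75%) and 1 for pulmonary against tricuspid valve (10.7%). For the pairs at 0 by edgeR, 2 genes had an unadjusted p under 0.05 in mitral against tricuspid valve and 0 in aortic against mitral valve, and DESeq2 called 1 and 0. Differences in response between tissues were called on the adjusted p alone. For aortic valve minus aorta 1 of the 5 was called on CHT (5.3% of all genes), 0 on Lard (2.33%) and 3 on IR/CHT (32.8%). For aortic minus pulmonary valve 0 were called on CHT (4.39%) and 3 on IR/CHT (40.2%), and for mitral minus tricuspid valve 0 on CHT (2.23%) and 0 on IR/CHT (9.56%). At an unadjusted p under 0.05 edgeR had 1 gene in the aortic valve minus aorta comparison on Lard, 1 in aortic minus pulmonary valve on CHT, and 0 and 1 in mitral minus tricuspid valve on CHT and IR/CHT, and DESeq2 was not run for them.

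**Figure D3:**
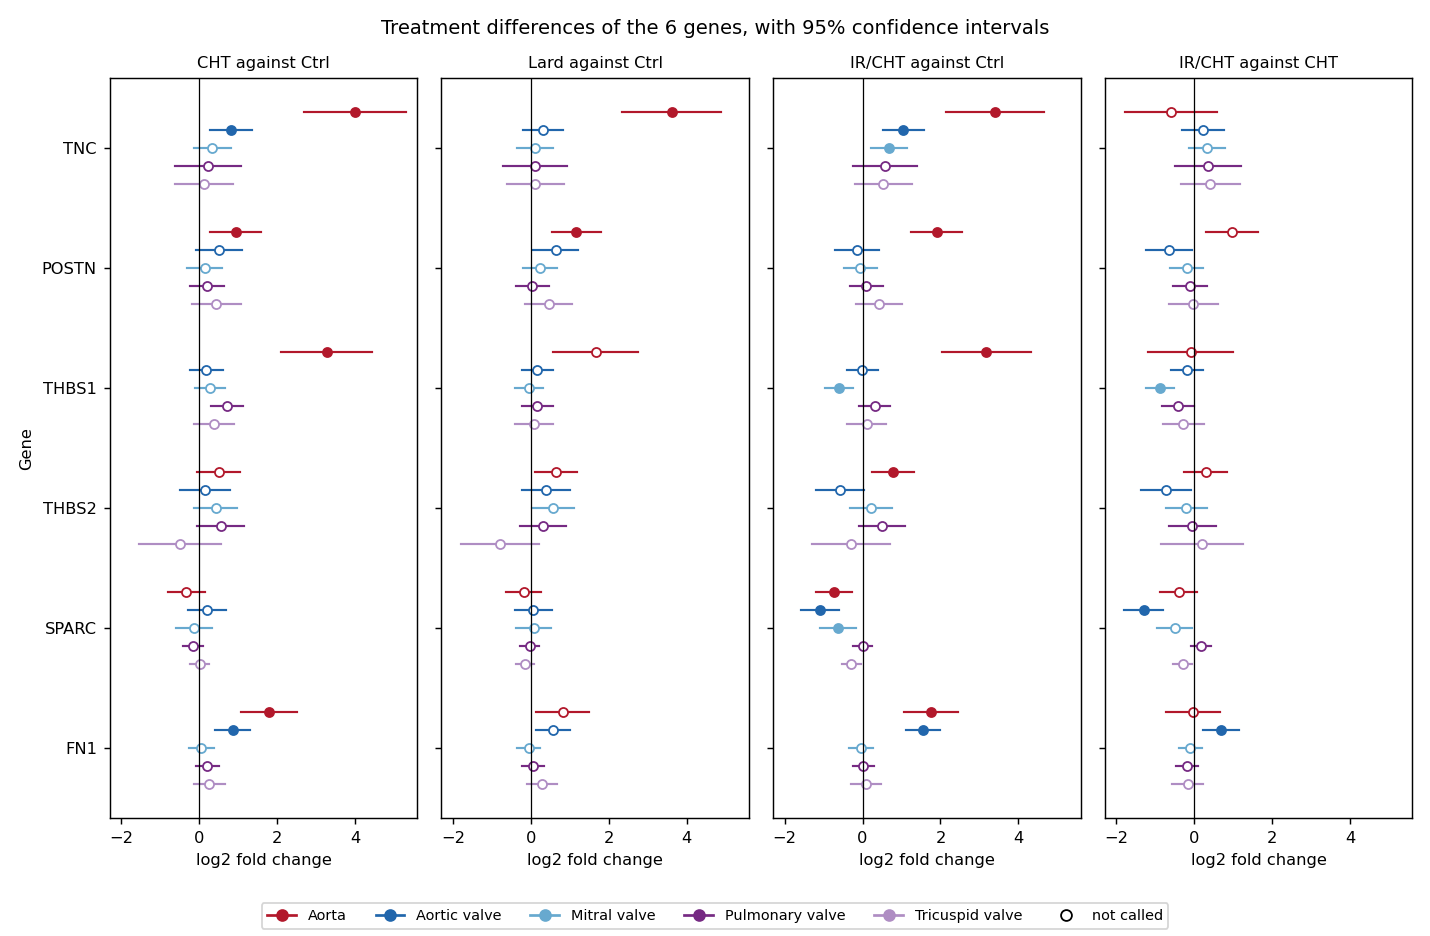
Fitted log2 fold change with 95% interval for each gene and tissue, with a panel for each treatment set against Ctrl and one for IR/CHT set against CHT, and filled points mark an adjusted p under 0.05 with a fold over 1.5 (for TNC as a description). In the aorta the intervals of TNC lie above 2 log2 units under all 3 treatments, and in the pulmonary and tricuspid valves no point is filled.

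Libraries of one tissue also varied together within their treatment groups, a measure that did not enter the choice of the genes. After the mean of each treatment group was taken off the log2 CPM, TNC was correlated with each other gene over the 27 rabbits of a tissue (26 for the mitral valve), 25 correlations in all with permutation p-values adjusted over them. Of these, 8 were called. The share of all genes that would be called with TNC in this way was not computed, so the 8 of 25 have no background beside them. In the aorta TNC went with THBS1 (r = 0.75, rho = 0.74, permutation p = 0.00015, adjusted 0.00375) and FN1 (r = 0.54, rho = 0.54, p = 0.0154, adjusted 0.0482), and r was 0.776 and 0.674 without the 2 rabbits farthest from the median TNC. Here and below the 2 rabbits left out were picked by level over all treatments and not by distance from their group mean. Libraries far from their own group can therefore remain. Aortic valve TNC went with THBS1 (r = 0.60, rho = 0.63, p = 0.00233, adjusted 0.0146), POSTN (r = 0.57, rho = 0.56, p = 0.00404, adjusted 0.0202), FN1 (r = 0.53, rho = 0.46, p = 0.0111, adjusted 0.0395) and SPARC (r = 0.51, rho = 0.49, p = 0.0110, adjusted 0.0395). Without 2 rabbits these were 0.545, 0.549, 0.359 and 0.401, and for FN1 the adjusted p of rho was 0.0719.

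FN1 was the gene that went with TNC in the mitral valve (r = 0.64, rho = 0.70, permutation p = 0.00195, adjusted 0.0146) and in the pulmonary valve (r = 0.63, rho = 0.65, p = 0.00106, adjusted 0.0133), with r of 0.466 and 0.690 without 2 rabbits. In the tricuspid valve its r was 0.44 (adjusted p = 0.0970). When the mean of each treatment group and plate was taken off, 2 of the 25 were called, both TNC with THBS1, at r = 0.75 in the aorta (adjusted permutation p = 0.00425) and r = 0.635 in aortic valves (adjusted p = 0.00750). For FN1 the adjusted p was then above 0.05. Its r was 0.648 in the mitral valve (adjusted p = 0.0740; adjusted p of rho = 0.00975), 0.607 in the pulmonary valve (0.0740) and 0.524 in the aortic valve (0.135; 0.224 without 2 rabbits), and it was 0.584 in the tricuspid valve (0.0879). In the aorta, which had 1 plate, the FN1 residuals were the same in both settings (r = 0.54), and only the joint adjustment differed (0.0740). In the aortic valve r was 0.458 for POSTN and 0.441 for SPARC (0.0879 and 0.215).

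The same rabbit's valves were compared in the same way, with 18 permutation correlations over 6 genes and 3 tissue pairs. The share of all genes called in this way was not computed. Aortic and mitral valves of one rabbit had a median correlation of 0.439 in their deviations from the group means. Between aortic and mitral valve POSTN (r = 0.74, rho = 0.75, permutation p = 6e-05, adjusted 0.00054), THBS2 (r = 0.66, rho = 0.66, p = 3e-05, adjusted 0.00054), FN1 (r = 0.58, rho = 0.61, p = 0.00349, adjusted 0.0157), SPARC (r = 0.54, rho = 0.51, p = 0.00498, adjusted 0.0179) and TNC (r = 0.52, rho = 0.47, p = 0.0112, adjusted 0.0337) were called. Without 2 rabbits these r were 0.657, 0.669, 0.763, 0.529 and 0.492, and for TNC the adjusted p of rho was 0.0563. THBS1 was not called there (r = 0.09, adjusted p = 0.785). Between pulmonary and tricuspid valve THBS2 was called (r = 0.70, rho = 0.62, p = 0.00012, adjusted 0.00072; 0.625 without 2). FN1 of that pair had r = 0.34 (adjusted p = 0.270) but passed by rank (rho = 0.52, adjusted permutation p = 0.0348). Between aorta and aortic valve no gene was called (TNC r = 0.33, adjusted p = 0.270). With plate means taken off as well, 7 of the 18 were called, and TNC between pulmonary and tricuspid valve was then at 0.713 (adjusted p = 0.0484; rho = 0.62 with an adjusted p of 0.0646) where it had been at -0.02.

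**Figure D4:**
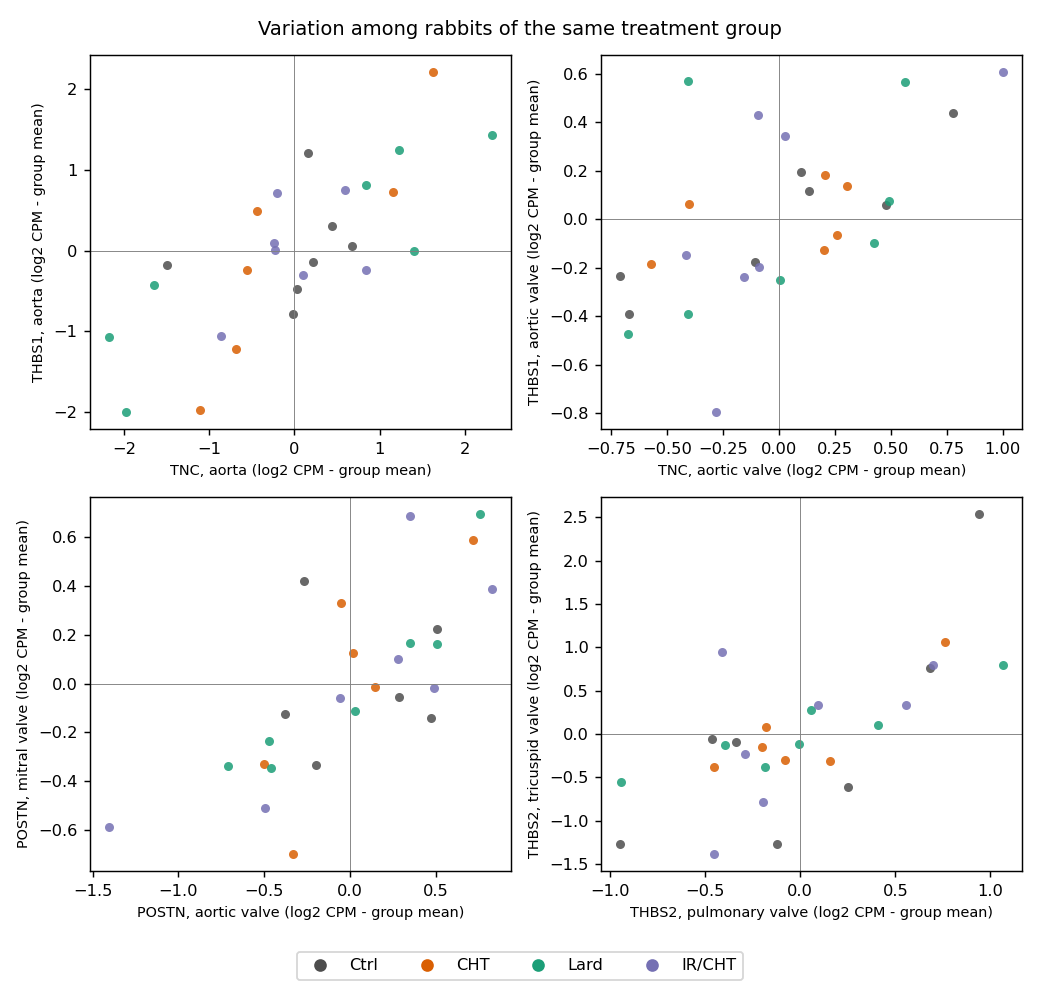
Log2 CPM minus the mean of the treatment group, a point per rabbit: TNC against THBS1 in aorta and aortic valve, POSTN in the aortic against the mitral valve of the same rabbit, and THBS2 in the pulmonary against the tricuspid valve. The 4 panels have r of 0.75, 0.60, 0.74 and 0.70.

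Over the 20 means of tissue and treatment, the genes whose level pattern was most like each of the 6 were found by Pearson correlation among 11249 genes, as a description. These points share rabbits and libraries, and no p is given. TNC was nearest to RUNX1 (r = 0.96), a transcription factor of blood and skeletal development, followed by MCF2L2 (0.93), CH25H, the cholesterol 25-hydroxylase (0.93) and IL34, a ligand of the CSF1 receptor (0.92). RUNX1 was at a mean of 1.41 ± 0.93 CPM in the Ctrl aorta, 33.1 on CHT, 16.6 on Lard and 42.1 on IR/CHT. Aortic valves had it at 23.8 CPM on Ctrl, 46.2 on CHT and 88.5 on IR/CHT, and in the pulmonary valve its means stayed within 7.34 to 10.1 CPM.

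POSTN was nearest to CLDN1 (0.97), ETV5 (0.96) and A2M (0.95), and THBS1 to LEF1 (0.98), a transcription factor of the Wnt pathway, PAK1 (0.97) and TBC1D4 (0.97). LEF1 had a mean of 0.91 CPM in the Ctrl aorta, and in the aortic valve 63.9 CPM on Ctrl and 31.4 on IR/CHT. The genes near THBS2 included MRC2 (0.91) and CACNA1G (0.91). SPARC was nearest to NAALADL2 (0.95), CDKL2 (0.94) and LHFPL6 (0.94), and FN1 to IL1RL2 (0.93), ARHGAP20 (0.91) and CEMIP (0.89). CEMIP, which takes part in hyaluronan breakdown, had means of 2.25 CPM in the Ctrl aorta, 142 on CHT and 157.5 on IR/CHT, and 27.8 and 260 CPM in the aortic valve on Ctrl and IR/CHT. Among the 6 genes themselves, TNC over the 20 means had r of 0.74 with THBS2, 0.66 with FN1, 0.56 with THBS1, 0.52 with POSTN and -0.62 with SPARC, and the highest of the other pairs named here was POSTN with THBS1 at 0.88.

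Genes around the 6 were taken from 4 lists: other matricellular genes, receptors of matricellular proteins, upstream regulators and matrix assembly genes. In the aorta 19, 19, 23 and 23 of their 25, 27, 27 and 29 genes were tested. Over all genes tested in the aorta 2098 rose and 765 fell on CHT (19.4%) and 3274 rose and 1796 fell on IR/CHT (34.3%), and 380 rose and 6 fell on Lard (2.61%). On CHT 5 other matricellular genes rose and 1 fell, with a list median of 0.26 against -0.04 over all genes. Among them SPP1, the mineral-binding osteopontin, rose by 3.35 ± 0.61 (SE, log2; edgeR adjusted p = 0.000152), CCN4 by 1.90 ± 0.43 (0.00144) and TGFBI by 0.91 ± 0.20 (0.000940). On Lard 3 rose and 0 fell, with a median of 0.49 against 0.01. These were SPP1 (3.15), TNN, the tenascin N gene (3.35), and IBSP, a sialoprotein of mineralised tissue, the latter 2 named after their values were seen. IBSP had 0 read pairs in 6 of 7 Ctrl aortas and 2 in the other, against 1 to 270 with a median of 37.5 on CHT, 1 to 4169 with a median of 49 on Lard and 17 to 499 with a median of 61 on IR/CHT, and it was called under all 3 treatments. On IR/CHT 8 rose and 6 fell, with a median of 0.29, SPP1 at 3.86, TNN at 3.97, CCN3 at -1.48 and FBLN5, an elastic fibre protein, at -1.37.

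Of the receptors 6 rose and 2 fell on CHT in the aorta and 8 rose and 6 fell on IR/CHT (medians 0.27 and 0.50). TLR4, a receptor of tenascin C, rose by 2.52 ± 0.31 on CHT (edgeR adjusted p = 8.69e-07) and 3.24 on IR/CHT, the integrin ITGA4 by 2.08 and 2.36, and the syndecan SDC4 by 0.97 and 0.71, while EGFR was at -0.99 on IR/CHT. Of the upstream regulators 3 rose and 0 fell on CHT and 3 rose and 3 fell on IR/CHT (medians 0.05 and -0.02), 3 and 6 of the 23 tested beside those 19.4% and 34.3% of all genes. The vasoconstrictor gene EDN1 rose by 3.60 ± 0.54 on CHT (1.17e-05) and 3.79 on IR/CHT, and the growth factor PDGFB by 2.95 and 4.16. Matrix assembly genes had 7 rises and 1 fall on CHT and 10 rises and 2 falls on IR/CHT (medians 0.53 and 0.44), led by the fibrillin FBN2 (2.86 ± 0.32 on CHT, 1.68e-07) and the cross-linking enzyme LOXL2 (2.04), while the microfibril gene MFAP5 was at -1.05. On Lard 0 receptors and 0 upstream regulators were called in the aorta, and 2 assembly genes of 23 tested rose, beside 2.61% of all genes, with list medians of 0.12, -0.01 and 0.49. They were COL12A1 (1.04) and PCOLCE (1.23), named after their values were seen. COL12A1 also rose on CHT (0.79) and IR/CHT (1.53), and PCOLCE on IR/CHT (0.93).

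In the aortic valve 1297 of all genes rose and 536 fell on CHT (11.9%), and 3251 rose and 3336 fell on IR/CHT (42.8%). There 19, 18, 23 and 23 genes of the 4 lists were tested, and 0 were called on Lard. On CHT the rises and falls were 4 and 4 for other matricellular genes, 5 and 3 for receptors, 2 and 2 for upstream regulators and 0 and 1 for assembly genes, with medians of 0.24, -0.11, -0.22 and -0.10 against -0.02 over all genes. On IR/CHT they were 6 and 10, 6 and 5, 3 and 8, and 4 and 6, with medians of -0.72, 0.00, -0.68 and -0.12 against -0.06. SPP1 rose by 4.15 ± 0.43 on CHT (edgeR adjusted p = 1.07e-07) and 4.17 on IR/CHT, TNN by 3.44 and 5.21, and CCN3 by 2.17 and 2.78, the last of these with a sign opposite to that in the IR/CHT aorta. ITGA4 rose by 2.94 and 4.28.

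Falls in the IR/CHT aortic valve included THBS3, a further thrombospondin, at -1.81 ± 0.17 (edgeR adjusted p = 3.19e-09), the TGF-beta-activating integrin subunit ITGB8 at -1.85, the TGF-beta co-receptor TGFBR3 at -1.62, the mesenchymal transcription factor PRRX1 at -1.16 and MFAP5 at -2.45. FBN2, at 3.47 in the IR/CHT aorta, was at -2.205 in the IR/CHT aortic valve. In the mitral valve 19, 19, 23 and 23 genes of the lists were tested. The calls on IR/CHT were 4 rises and 4 falls, 5 and 3, 2 and 4, and 2 and 3 in the same order of lists, where 1696 of all genes rose and 1019 fell (17.7%). For the pulmonary and tricuspid valves edgeR called 0 genes of these lists under any treatment, where 0% to 0.706% of all genes were called.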

How the data were processed

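RNA-seq libraries were prepared with the SMARTer Stranded Total RNA-Seq kit and sequenced on NovaSeq. Per the labels, reads were demultiplexed with bcl2fastq 2.20 and processed with nf-core/rnaseq on OryCun2.0. The authors deposited raw counts per Ensembl gene. Genes were filtered with filterByExpr, scaled by TMM and tested per tissue in a 4-group model with edgeR 4.0.16 (R 4.3.3), quasi-likelihood test, Benjamini-Hochberg adjustment. Tissue pairs used the Ctrl libraries, differences in response a 2-tissue model. Log2 CPM used a prior count of 2. Correlations used 100000 permutations, two-sided. DESeq2 1.42.0, other scaling, no filter, plate, the rabbit as a block and leaving out each library were alternatives. The tests were checked on simulated data. The 6 genes, the lists and the genes named were chosen with earlier results of these data known. Named were all 6 genes, the 5 (TNC) or 3 (others) nearest genes by correlation, and from each list at most the 3 called genes with the smallest p on CHT and on IR/CHT in aorta and aortic valve. Some of the genes this rule names are not reported here.

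Libraries of the same rabbit number come from the same animal. The median correlation of their deviations from the group means was 0.201 for aorta and aortic valve (20 of 27 over 0.1), 0.439 for aortic and mitral valve (26 of 26) and 0.285 for pulmonary and tricuspid valve (23 of 27), beside -0.04, -0.09 and -0.04 for other rabbits of the same treatment. Library totals were 13564979 to 50577676. Counting error at 10 CPM was 7.4% in the median library and 8.59% in the smallest. The 95% intervals are those of the fits.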

Additional observations from a re-analysis of the deposited data

Results flagged for a closer look

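Of the 120 sets of a gene, tissue and treatment, 6 held a library far from its group by Dixon's test, where chance gives about 1 in 20. TNC in the Ctrl aorta L552 was 4.13 CPM against 11.7 to 19.0 in the others, and in the IR/CHT aortic valve L547 it was 650.4 against 243.1 to 331. THBS2 in the CHT tricuspid valve L172 was 152.8 CPM against 56.3 to 77.5. SPARC in the Lard mitral valve L544 was 12.4 CPM against 16.9 to 20.9, and in the IR/CHT pulmonary valve L196 it was 25.9 against 16.7 to 19.4. FN1 in the IR/CHT tricuspid valve L197, one of the libraries with a low endothelial sum, was 3167 CPM against 5737 to 9008.

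The response to treatment differed between tissues for the genes named here. Over all genes, 5.3% differed on CHT, 2.33% on Lard and 32.8% on IR/CHT for aortic valve minus aorta, and 40.2% on IR/CHT for aortic minus pulmonary valve. The values of TNC are a description. For aortic valve minus aorta the log2 differences were -3.23 (TNC) and -3.13 (THBS1) on CHT, -3.33 (TNC) on Lard, and -2.50 (TNC), -2.17 (POSTN), -3.32 (THBS1) and -1.51 (THBS2) on IR/CHT. For aortic minus pulmonary valve on IR/CHT they were -1.15 (THBS2), -1.17 (SPARC) and 1.47 (FN1).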

How the results depend on the processing

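Over the 5 tissues the calls among the 6 genes, TNC included as a description, were 6 on CHT, 2 on Lard, 12 on IR/CHT and 3 for IR/CHT against CHT. By tissue, 0.159% to 19.4% of all genes were called on CHT, 0% to 2.61% on Lard and 0.231% to 42.8% on IR/CHT. For IR/CHT against CHT the share was 0% to 19.7%. The counts of the 6 genes serve here to compare settings. On Lard the 6 genes had 1 call with no filter on low counts, and 0 with only the 2 groups compared in the fit, where fewer libraries estimate the spread. DESeq2 called 6, 3, 11 and 4. For IR/CHT against CHT plate 1 alone gave 1. Leaving out each library in turn gave 5 to 6, 1 to 3, 10 to 12 and 2 to 4 calls, and 7 to 11 for the tissue pairs on Ctrl, which had 8. With group and plate means removed 2 correlations of TNC with another gene were called in place of 8, with r of FN1 within 0.52 to 0.65 in the 4 tissues that lost its call. The aorta, on 1 plate, kept its r. Otherwise the cause of these changes was not tested. With the rabbit as a replicate block the tissue pairs had 9 calls and the differences in response 11 in place of 10. The block added POSTN (mitral against tricuspid valve) and THBS1 (mitral minus tricuspid response to IR/CHT), given in the report, and changed no other call. Without the 5 right-sided valve libraries that stood apart, an alternative chosen after seeing the data, there were 7, 2, 12 and 3 treatment calls, 10 for tissue pairs and 10 for differences in response. Of 211 alternative values of the 41 called results, those of TNC among them as a description, 30 lost the call. With a library left out 57 of 366 did, and 0 changed direction. Since the 41 were picked by passing the thresholds, an unchanged direction was likely from the start. Depth limits SPARC, at 4.79 CPM in its lowest library, and TNC in the Ctrl aorta, at 4.13.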
